A study of Mus musculus with 9 samples.

Results

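The matrix metalloproteinases (MMPs), the ADAMTS proteases, their ADAMTS-like relatives and the tissue inhibitors of metalloproteinases (TIMPs) were followed in mammary tumours of *BlgCre-NeuKI* mice. The genes were chosen by symbol alone, as every gene counted whose symbol was Mmp, Adamts or Adamtsl with a number, or Timp1 to Timp4. They numbered 51 of 18484 genes, namely 23 Mmp, 19 Adamts, 5 Adamtsl and 4 Timp genes.

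RNA-seq was carried out on 9 tumours, with 1 library for each. The 5 high-amplified tumours were adenocarcinomas of no special type, AC(NST), 3 of them virgin (MS1213.1, MS1163.1, MS1163.2) and the others parous (MS1218.2, MS1155.3). The not/low-amplified group had 3 epithelial tumours, all parous, the AC(NST) MS1166.1 and the metaplastic adenosquamous carcinomas (ASQC) MS1210.1 and MS1349.1. The last tumour was the mammary sarcoma MS1156.1 from a parous mouse, which is also labelled as non/low-amplified but was grouped by its diagnosis. All mice were heterozygous for *BlgCre* and for *NeuKI* on a mixed FVB/C57Bl6 background, and the labels give no ages. *NeuKI* is an activated rat *Neu* (*NeuNT*) placed in the endogenous *Erbb2* locus behind a floxed STOP cassette, and *BlgCre*, driven by the β-lactoglobulin promoter, removes that cassette mainly in luminal oestrogen receptor-negative cells. MS1163.1 and MS1163.2 share a mouse number although the design text counts as many mice as tumours, so p-values that treat them as separate may measure too small a spread. There was no virgin not/low-amplified tumour and no high-amplified ASQC, so amplification, parity and histotype cannot be told apart in full. Each library was made from a piece of whole tumour, in which fewer cells of a type and less RNA per cell cannot be told apart.

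MMPs are zinc proteases, secreted or anchored to the membrane, that cut collagens, laminins, elastin and proteins shed from the cell surface. They are made as inactive precursors, opened by furin-like convertases or by other proteases, and blocked by TIMPs, which occupy the active site. ADAMTS proteases are secreted enzymes with thrombospondin repeats that cut proteoglycans such as aggrecan and versican or trim the ends of procollagens, whereas ADAMTS-like proteins keep the repeats but lack the protease domain. In the mammary gland these enzymes remodel the matrix during branching and involution, and in tumours many are made by fibroblasts and macrophages rather than by the cancer cells.

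The libraries held between 12501225 and 23912429 counts on genes, and the 51 genes took between 0.127% and 0.772% of them. *Erbb2* lay between 5284 and 105019 normalized counts in the high-amplified tumours, between 1532 and 2783 in the not/low-amplified tumours and at 1177 in the sarcoma. Normalized counts are the deposited counts divided by a single size factor for each tumour. The summed level of 7 markers of mammary epithelium was 34638 to 135720 in the 8 epithelial tumours and 474 in the sarcoma. Both ASQC tumours lay above every AC(NST) tumour in 6 of 6 squamous markers, and MS1210.1 had a sum of 14965, MS1349.1 of 2895 and the AC(NST) tumours of 16.2 to 446. MS1218.2 stood apart by its stromal markers, and values without it are given beside several results. In the paper it was the only sample excepted from the high tumour-cell purity estimated for the others. The paper also reports its *Neu* copy number as high by qPCR, but low by digital droplet PCR and not amplified in exome data. MS1213.1 was likewise low by digital droplet PCR but amplified in exome data.

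The heat map of all 51 genes shows abundant genes, such as Mmp14, Mmp15, Timp2 and Timp3, beside genes near 0 in nearly every tumour. A gene entered the test where 3 or more of the 8 epithelial tumours had 10 or more counts, and 44 of the 51 did. The other 7 were Adamts13, Mmp1a, Mmp1b, Mmp20, Mmp21, Mmp27 and Timp4. Of these, Adamts13, Mmp1a, Mmp1b, Mmp21 and Mmp27 stayed below 10 normalized counts in all 9 tumours, Mmp20, the tooth enamel protease, was 38.0 in MS1349.1 and at most 3.73 elsewhere, and Timp4 was 110.2 in the sarcoma and at most 21.1 elsewhere.

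**Figure D1:**
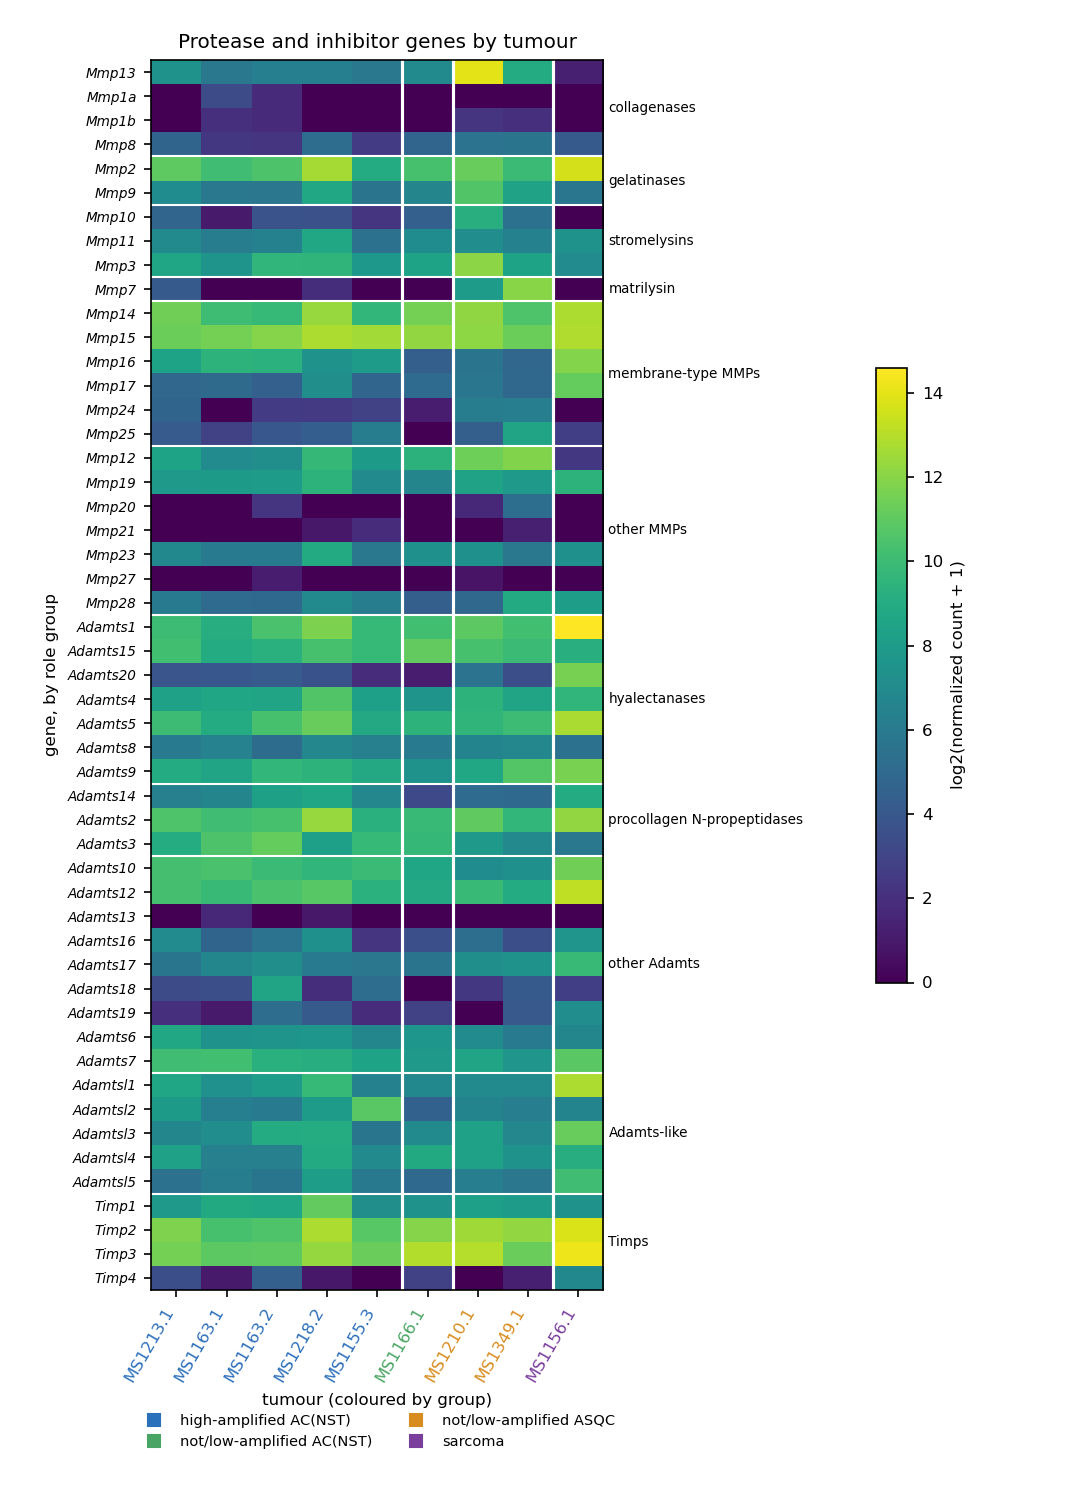
Heat map of the 51 genes (vertical axis, by role group) in the 9 tumours (horizontal axis, coloured by group), with the colour giving log2(normalized count + 1). Mmp13, Mmp7 and Mmp12 stand out in the ASQC tumours, with 16546 normalized counts of Mmp13 in MS1210.1, and Adamts1, with 24964 normalized counts, in the sarcoma.

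Of the Mmp genes, 10 lie side by side within 427 kb of chromosome 9 (GRCm38, 7272514 to 7699585), in the order Mmp13, Mmp12, Mmp1b, Mmp3, Mmp1a, Mmp10, Mmp8, Mmp27, Mmp20 and Mmp7. They include the secreted collagenases, the stromelysins Mmp3 and Mmp10, the macrophage elastase Mmp12 and matrilysin, Mmp7. The 120 bases before the RefSeq start are shown for 5 cluster genes that hold the element marked below, from the plus strand of GRCm38.p6. The stretches are chr9:7272394-7272513 for Mmp13, chr9:7347254-7347373 for Mmp12, chr9:7445702-7445821 for Mmp3, chr9:7502222-7502341 for Mmp10 and chr9:7691970-7692089 for Mmp7. Capitals mark TGANTCA, the core element of AP-1 (Fos and Jun dimers), which reads the same on both strands.
Mmp13: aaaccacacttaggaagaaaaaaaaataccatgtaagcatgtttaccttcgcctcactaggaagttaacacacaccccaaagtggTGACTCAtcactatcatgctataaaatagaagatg
Mmp12: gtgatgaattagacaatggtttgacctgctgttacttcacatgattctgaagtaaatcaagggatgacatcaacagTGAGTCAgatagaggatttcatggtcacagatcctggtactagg
Mmp3: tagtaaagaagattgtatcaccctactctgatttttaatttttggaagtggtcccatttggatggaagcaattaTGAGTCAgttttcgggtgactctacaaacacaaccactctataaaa
Mmp10: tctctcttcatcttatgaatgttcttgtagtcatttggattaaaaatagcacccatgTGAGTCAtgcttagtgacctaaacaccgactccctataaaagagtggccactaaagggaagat
Mmp7: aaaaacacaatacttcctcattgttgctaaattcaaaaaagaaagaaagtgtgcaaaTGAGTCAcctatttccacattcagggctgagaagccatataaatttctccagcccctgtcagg

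The element began 35 bases before the start in Mmp13, 44 in Mmp12, 46 in Mmp3 and 63 in both Mmp10 and Mmp7. In windows from 250 bases before to 50 after each RefSeq start, which were given for 36 of the 51 genes, it was found in 8 of the 10 cluster genes and in 0 of the other 26. The same letters occurred in 8.97% of 27025 genes with a window, or 7.81% of 32851 windows. Mmp12 and Mmp7 each have a further RefSeq start whose window lacks it. Among the cluster genes, Mmp8 and Mmp27 lacked it, and Mmp1a, Mmp1b and Mmp20 held it although they were at or near 0 in most tumours. In the histotype values below, both ASQC tumours lay above every AC(NST) tumour in Mmp13, Mmp12, Mmp10 and Mmp7, which hold it. That was so in Mmp8 too, which lacks it, but not in Mmp3, which holds it. A match gives letters only and not a site at which a factor was bound.

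Histotype was compared to ask which of these genes separate ASQC (2 tumours) from AC(NST) (6 tumours). Mmp13 and Mmp7 rose in ASQC, and both belong to the chromosome 9 cluster. No member was called lower by edgeR, while DESeq2 called Adamts3, Adamts10 and Mmp16 lower, beside 218 of 18358 genes. DESeq2 made more false calls on simulated counts with such small groups, so a call by DESeq2 alone is weaker than one by edgeR. By edgeR's quasi-likelihood test with Benjamini-Hochberg adjustment over 14007 genes, calling genes with adjusted p under 0.05 and over 2-fold, 2 of 44 members were called higher in ASQC, where the share of all genes was 0.221%, and 0 of 44 higher in AC(NST), where it was 0.0143%. At an unadjusted p under 0.05 there were 9 members higher and 3 lower, beside 614 and 607 of 14007 genes. The median log2 fold change was -0.08 for the members and -0.08 for all genes. Without MS1218.2 these medians were 0.40 and -0.04.

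Mmp13, or collagenase-3, which cuts fibrillar collagens, was 16546 in MS1210.1 and 505 in MS1349.1. In the AC(NST) tumours its lowest, median and highest normalized counts were 56.7, 77.4 and 183. Both ASQC tumours thus lay above all 6 AC(NST) tumours, and differed 32.8-fold between themselves. The log2 fold change was 6.46 ± 0.89 (SE), with an adjusted p of 0.0247 by edgeR. It was called in 2 of the 8 fits that left out a tumour, those without MS1349.1 or MS1166.1. Without MS1210.1 it was 2.35 (adjusted p = 0.744 by edgeR), and without a high-amplified tumour the adjusted p by edgeR was 0.0586 to 0.0937. With MS1163.1 and MS1163.2, which share a mouse number, averaged into 1 sample, the adjusted p by edgeR was 0.0760 for Mmp13 and 0.0781 for Mmp7, and with parity as a covariate it was 0.282 and 0.224.

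Mmp7, a small MMP without the hemopexin domain that is made chiefly by glandular epithelium, was 257 in MS1210.1 and 4201 in MS1349.1. In AC(NST) it was 16.4 in MS1213.1, 2.78 in MS1218.2 and 0 in the other 4 tumours, where 0 counts allow a level of up to 3.86 normalized counts (3 counts, counting error only). The groups did not overlap, and the ASQC tumour with less Mmp13 was the one with more Mmp7. Its log2 fold change was 9.29 ± 1.36 (SE), with an adjusted p of 0.0303 by edgeR. It passed the filter on low counts through MS1213.1, MS1210.1 and MS1349.1 alone, so the fits without any of these gave no value for it. Of the 5 fits without another tumour, it was called in that without MS1166.1, and in the other 4 the adjusted p by edgeR was 0.0705 to 0.0962. Mmp7 shares 123 exon bases and Mmp12 157 with a gene on the other strand.

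The rest of the cluster differed less. Mmp10, stromelysin-2, was 577 in MS1210.1 and 42.4 in MS1349.1 against 1.05 to 26.0 (median 11.8) in AC(NST). Its log2 fold change of 4.60 ± 0.98 (SE) did not pass (adjusted p = 0.141 by edgeR). Mmp12, the macrophage elastase, was 2673 in MS1210.1 and 3596 in MS1349.1 against 130.1 to 848 (median 304) in AC(NST). These groups did not overlap either, and the log2 fold change was 2.98 ± 0.62 (SE, adjusted p = 0.139 by edgeR). Mmp3, stromelysin-1, which activates other MMP precursors, was 4217 in MS1210.1, but its 349 in MS1349.1 lay inside the 186 to 798 of AC(NST). Mmp8, the neutrophil collagenase, was 45.7 and 48.2 in the ASQC tumours and 3.73 to 36.1 in AC(NST).

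Of the 10 cluster genes, 6 reached 10 normalized counts in some AC(NST) tumour, a limit set after seeing the data so that no gene entered through an ASQC tumour, as Mmp20 otherwise would. All 6 were highest in an ASQC tumour, against 16.3% of 14784 genes with such a level, and in 5 of them both ASQC tumours lay above every AC(NST) tumour. That was so for 2 of the 39 other members with such a level (5.13%) and for 5.04% of all genes. Summed over the cluster, the level was 24321 in MS1210.1 and 8783 in MS1349.1, between 390.3 and 1734 in AC(NST) and 155 in the sarcoma. The plot of the cluster shows the spread between the ASQC tumours, which was wide for Mmp13 and Mmp7 and narrow for Mmp12 and Mmp8.

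**Figure D2:**
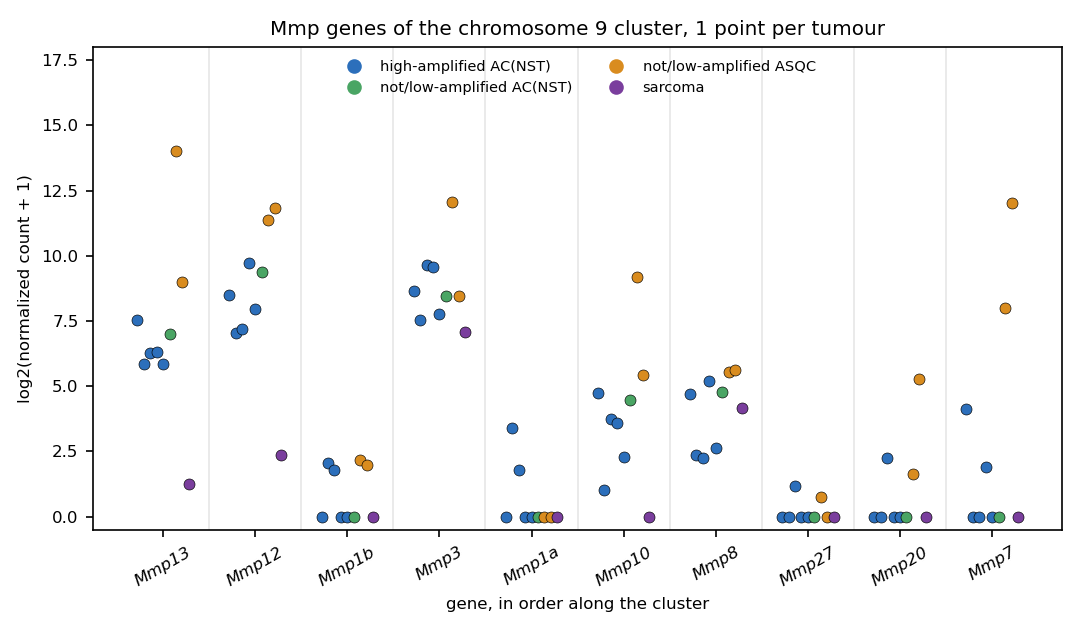
Level of each of the 10 Mmp genes in order along the cluster (horizontal axis), as log2(normalized count + 1) (vertical axis), with 1 point per tumour coloured by group. The ASQC points lie above all AC(NST) points in Mmp13, Mmp12, Mmp10, Mmp8 and Mmp7, and the sarcoma lies at the bottom in most genes, with 1.40 normalized counts of Mmp13.

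Markers of other cell types moved with these values in part. The neutrophil sum (7 markers, of which Mpo, Elane, Camp, Ngp and Ly6g reached at most 16.8) was 314 and 434 in the ASQC tumours and 33.3 to 339 in AC(NST), and both ASQC tumours lay above all AC(NST) tumours in 2 of its 7 markers. Macrophage sums (6 of 7 markers listed) were 12173 and 9275 in ASQC and 3115 to 41224 in AC(NST), with the highest in MS1218.2, and the ASQC tumours lay above AC(NST) in 0 of 6. The basal or myoepithelial sum was 57157 in MS1210.1 and 10644 in MS1349.1 against 1201 to 13237. Krt6a carried the squamous sum and Krt14 the basal sum of MS1210.1, whereas the other 5 squamous markers were highest in MS1349.1. The fitted change was negative in 8 of 8 fibroblast markers (median log2 fold change -0.44). The part of these cells in the differences was not tested.

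Outside the cluster, Mmp24, a membrane-type MMP, was 73.1 in MS1210.1 and 73.8 in MS1349.1 against 0 to 25.0 (median 4.80) in AC(NST). Its log2 fold change of 3.34 ± 1.07 (SE) did not pass (adjusted p = 0.381 by edgeR), and 637 of its exon bases are shared with a gene on the other strand. Mmp9, gelatinase B, was 1601 and 346 in the ASQC tumours, but MS1218.2 held 426. Mmp25 and Mmp28, chosen after their values were seen, were high in MS1349.1 alone among the epithelial tumours. They were 365 and 489.5 normalized counts there, against at most 68.3 and 119 in the other epithelial tumours. In the sarcoma they were 5.58 and 290. Counting non-overlapping genes over 2-fold apart that reached 50 normalized counts, 6 of 44 members were higher in ASQC (Mmp13, Mmp7, Mmp10, Mmp12, Mmp24 and Adamts17), beside 2.78% of all genes, and 2 of 44 were higher in AC(NST) (Adamts3 and Adamts10), beside 2.53%.

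By edgeR, no Adamts gene was called between the histotypes. The fitted change in ASQC was negative in 3 of 3 procollagen N-propeptidases, in 7 of 8 tested members of the remaining Adamts group and in 5 of 5 Adamts-like genes, but positive in 5 of 7 hyalectanases, the proteoglycan-cutting group. It was negative in 8 of 8 fibroblast markers as well, whose part was not tested. Adamts3, which trims procollagens, was 226 in MS1210.1 and 116 in MS1349.1 against 303 to 2299 (median 877) in AC(NST). The groups did not overlap, and the log2 fold change of -2.62 ± 0.78 (SE) did not pass by edgeR (adjusted p = 0.327) but was called by DESeq2 (adjusted p = 0.0100). Adamts10, which binds fibrillin microfibrils, was 137 and 163 in the ASQC tumours against 397 to 1339.9 (median 988), a log2 fold change of -2.68 ± 0.52 (SE, adjusted p = 0.110 by edgeR). It was called by DESeq2 (adjusted p = 1.13e-05) and by edgeR with no filter (0.0353), with a filter of 2 tumours (0.0490) and without MS1166.1 (0.0177). Adamts17, whose product also acts on fibrillin microfibrils, was the exception, at 154 and 176 against 47.6 to 145 (median 59.0), with a log2 fold change of 1.10 ± 0.53 (SE, adjusted p = 0.602 by edgeR).

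The Mmp share of the summed level was larger in the ASQC tumours, and 1 gene in each carried a large part of the Mmp level. On the scale of normalized counts per kilobase of exon, which allows levels of different genes to be added, Mmp genes made up 74.5% of the summed level of the 51 genes in MS1210.1 and 69.3% in MS1349.1, against 37.8% to 45.2% in the AC(NST) tumours and 32.5% in the sarcoma. Mmp13 was 6190 of the 12499 per kilobase of Mmp genes in MS1210.1, and Mmp7 was 3933 of the 6336 in MS1349.1. Leaving out both genes in every tumour, the Mmp share was 58.7% in MS1210.1 and 44.1% in MS1349.1. The former lay above the 37.5% to 44.9% of the AC(NST) tumours and the latter within it. Adamts genes made up 7.37% and 9.50% in the ASQC tumours and 17.3% to 33.4% in AC(NST). The Adamts sums themselves overlapped, at 1236 and 868 per kilobase in the ASQC tumours and 921 to 2496 in AC(NST), whereas the Mmp sums were 12499 and 6336 against 1455 to 5432, the last in MS1218.2. Over the 8 epithelial tumours the Mmp sum ran from 1455 to 12499 and the Adamts sum from 868 to 2496 per kilobase.

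The main contrast of the study set the 5 high-amplified against the 3 not/low-amplified epithelial tumours. Mmp16 and Adamts10 rose in the high-amplified tumours by edgeR. No member was called lower by edgeR, while DESeq2 called Mmp7, Mmp10 and Mmp12 lower, beside 694 of 18358 genes. By the same edgeR test, 2 of 44 members were called towards the high-amplified tumours, beside 0.435% of all genes, and 0 of 44 towards the not/low-amplified tumours, beside 0.485%. At an unadjusted p under 0.05, 7 of 44 members were higher and 6 lower, beside 1657 and 1542 of 14007 genes. The median log2 fold change was 0.34 for the members and 0.02 for all genes. Without MS1218.2, 5 of 43 members were higher and 9 lower, beside 2323 and 2130 of 13816 genes. The medians were then -0.47 for the members and -0.04 for all genes. In what follows, the values of the high-amplified tumours stand in the order MS1213.1, MS1163.1, MS1163.2, MS1218.2 and MS1155.3.

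Mmp16 (chromosome 4, 17852893 to 18119145), a membrane-type MMP that can activate pro-MMP2, was 352, 695, 644, 182 and 259 in the high-amplified tumours. It was 20.2 in MS1166.1, 47.8 in MS1210.1 and 27.0 in MS1349.1. All 5 high-amplified tumours lay above all 3 others, with means of 426 ± 230.4 (SD, n = 5) and 31.7 ± 14.4 (SD, n = 3). The log2 fold change was 3.74 ± 0.60 (SE), with an adjusted p of 0.0301 by edgeR. Among the AC(NST) tumours alone, where MS1166.1 is the only not/low-amplified tumour and is assumed to vary like the others, it was 4.35 (adjusted p = 0.106 by edgeR) and among the parous tumours alone 2.84 (adjusted p = 0.329 by edgeR). Of the 8 fits without a tumour, it was called in that without MS1218.2, and in the other 7 the adjusted p by edgeR was 0.0576 to 0.0817. The sarcoma, labelled as non/low-amplified, held 3774, and with it among the not/low-amplified tumours the log2 fold change was -1.15.

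Adamts10 (chromosome 17, 33524204 to 33553782) was 1258, 1339.9, 974, 789.6 and 1000.9 in the high-amplified tumours. It was 397 in MS1166.1, 137 in MS1210.1 and 163 in MS1349.1. Again the groups did not overlap, with means of 1072 ± 224 (SD, n = 5) and 232 ± 143 (SD, n = 3), and the AC(NST) tumour MS1166.1 lay nearest to the high-amplified group. The log2 fold change was 2.24 ± 0.41 (SE), with an adjusted p of 0.0396 by edgeR. It was 1.41 among the AC(NST) tumours alone, again against MS1166.1 only (adjusted p = 0.188 by edgeR) and 2.01 among the parous tumours alone (adjusted p = 0.355 by edgeR). It was called in 2 of the 8 fits without a tumour, those without MS1218.2 or MS1166.1, and in the other 6 the adjusted p by edgeR was 0.0729 to 0.146. Without MS1166.1 the not/low-amplified group is the 2 ASQC tumours alone. That fit is the same as the histotype fit without MS1166.1, with the sign reversed, and cannot tell amplification from histotype.

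Adamts14, another procollagen N-propeptidase, was 82.8, 101, 317, 381 and 108 in the high-amplified tumours. It was 8.33 in MS1166.1, 33.8 in MS1210.1 and 30.7 in MS1349.1. The groups did not overlap, with means of 198 ± 140.1 (SD, n = 5) and 24.3 ± 13.9 (SD, n = 3). Its log2 fold change of 3.01 ± 0.76 (SE) did not pass by edgeR (adjusted p = 0.0797) but was called by DESeq2 (adjusted p = 0.000406). Non-overlapping genes over 2-fold apart were 3 of 44 members higher in the high-amplified tumours (Mmp16, Adamts10 and Adamts14), beside 4.74% of all genes, and 0 of 44 lower, beside 3.5%.

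By role group, the fitted change was positive in 3 of 3 procollagen N-propeptidases (median log2 fold change 1.48), in 7 of 8 of the remaining Adamts group (1.23) and in 4 of 5 Adamts-like genes (0.90). It was also positive in 8 of 8 fibroblast markers (0.93) and in 6 of 6 macrophage markers (0.76), and negative in 7 of 7 markers of mammary epithelium (-0.997), and the part of these cells was not tested. Among the MMPs it was negative in both collagenases tested (-3.68), in 2 of 3 stromelysins (-1.79) and in matrilysin (-8.46), all of them groups whose genes lie wholly or in part in the chromosome 9 cluster. In the 6 tested genes of that cluster the change was negative in 6 of 6. Of these, 4 had an unadjusted p under 0.05, beside 1542 of 14007 genes lower at that limit. No gene of the cluster was non-overlapping between the amplification groups, since the AC(NST) tumour MS1166.1 lay inside or below the high-amplified range in each. For Mmp12 and Mmp8 this rested on MS1218.2 alone. Mmp12 was 661 in MS1166.1, 848 in MS1218.2 and at most 361 in the other high-amplified tumours, and Mmp8 was 26.2, 36.1 and at most 25.0. Without MS1218.2 neither gene overlapped between the amplification groups. The plot of fold changes gives every tested member in both comparisons.

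**Figure D3:**
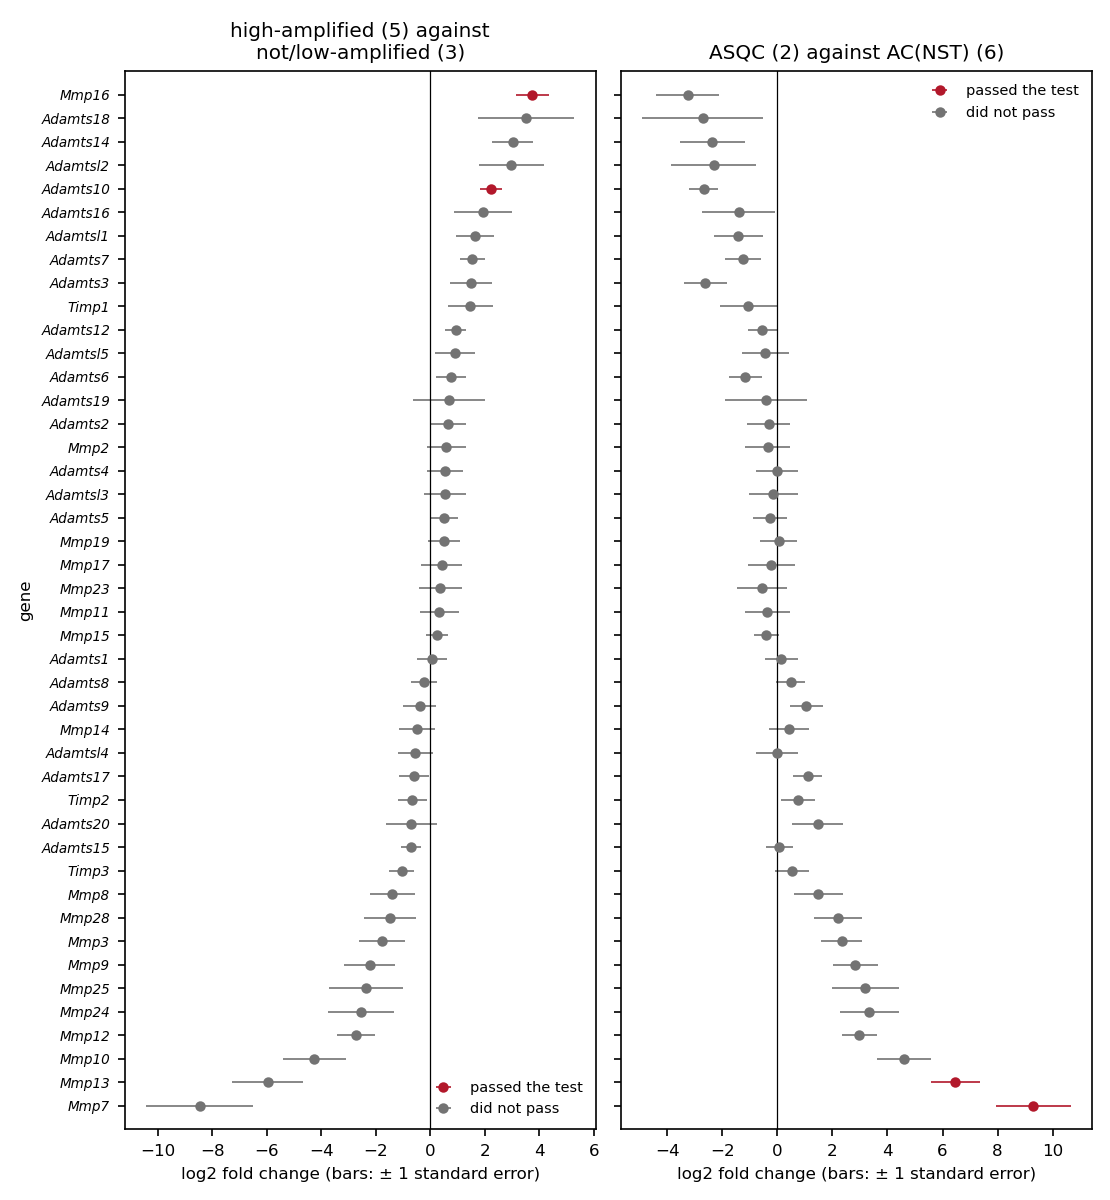
Log2 fold change of the 44 tested genes (vertical axis, ordered by the left panel), with bars of 1 standard error, for high-amplified (5 tumours) against not/low-amplified (3) on the left and ASQC (2) against AC(NST) (6) on the right, red where edgeR called the gene. Mmp16 and Adamts10 are red on the left (3.74 and 2.24) and Mmp13 and Mmp7 on the right (6.46 and 9.29), and many genes positive on the left are negative on the right, where the 2 ASQC tumours are also not/low-amplified.

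A single high-amplified tumour, MS1218.2, held the highest level of many members. Of the 46 members that reached 10 normalized counts in an epithelial tumour, 20 (43.5%) were highest in MS1218.2, against 19.7% of 15148 genes, and 0 were lowest there, against 20.3% of all genes. Mmp2, gelatinase A, made mainly by fibroblasts, was 6329 in MS1218.2 and 515 to 2374 in the other 7. Adamts2, the main procollagen I N-propeptidase, was 5283 there and 626 to 2097 in the others. Timp1 was 2188 there and 147 to 470.1 in the others. In Mmp2 and Adamts2 the other 4 high-amplified tumours lay inside or below the range of the not/low-amplified tumours.

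Marker sums of 3 stromal cell types were highest in MS1218.2 as well. The fibroblast sum was 154539 in MS1218.2 and 12926 to 49862 in the other 7, the macrophage sum 41224 against 3115 to 12173 and the endothelial sum 15002 against 2086 to 6676. Highest in MS1218.2 were 6 of 8 fibroblast markers, 6 of 6 listed macrophage markers and 6 of 6 endothelial markers, none of which was at 0 in all tumours. Its mammary epithelial sum, 52670, lay within the 34638 to 135720 of the 8. Their part in the levels of the proteases was not tested. At the other end, MS1166.1, which had the lowest of these 3 stromal sums, was lowest in 13 of the 46 members, and in 20.0% of all genes.

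**Figure D4:**
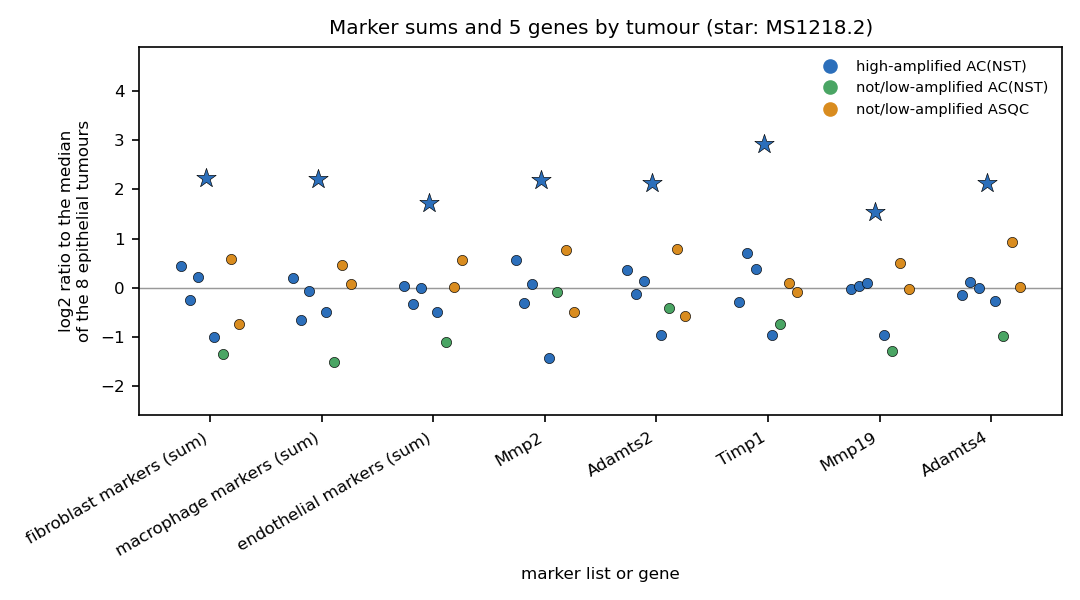
Marker sums and 5 genes (horizontal axis) as log2 ratio to the median of the 8 epithelial tumours (vertical axis), with 1 point per tumour coloured by group and a star for MS1218.2. The star lies above every other tumour in all 8 columns, with 154539 normalized counts in the fibroblast sum and 2188 in Timp1. The 5 genes are among the 20 of 46 members that were highest in MS1218.2, so its place in their columns follows from that choice.

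Averaging MS1163.1 and MS1163.2 into 1 sample gave adjusted p-values by edgeR of 0.0635 for Mmp16 and 0.0814 for Adamts10, and parity as a covariate gave 0.1504 and 0.185, so neither was called in these fits. Leaving out MS1218.2 changed which members were called for amplification. In that fit 2 of 43 members were called higher and 2 lower, beside 751 higher and 504 lower of 13816 genes. Mmp16 and Adamts10 were again called higher, with log2 fold changes of 3.94 and 2.33 and adjusted p-values of 0.0130 and 0.0202 by edgeR. Mmp12 and Mmp13 were then called lower in the high-amplified tumours, at -3.37 and -5.92, with adjusted p-values of 0.0232 and 0.0486 by edgeR. The 2 not/low-amplified ASQC tumours carry the high values of both genes, so histotype and amplification cannot be told apart here.

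The inhibitors were among the most abundant members. The mean level per kilobase over the 8 epithelial tumours was 966 for Timp2, 586 for Timp1 and 502 for Timp3 (318 for Timp1 without MS1218.2), beside 804 for Mmp15, 599 for Mmp2 and 415 for Mmp14, the membrane-type MMP that activates pro-MMP2 together with TIMP2. That of Mmp13 was 824, but it was 6190 per kilobase in MS1210.1 and 21.2 to 189 in the other 7. Timp2 was 3567, 1324, 1561, 7127 and 1784 normalized counts in the high-amplified tumours, 3946 in MS1166.1, 5930.5 in MS1210.1 and 4875 in MS1349.1. The groups overlapped. Timp3, which binds to the matrix and also inhibits ADAMTS proteases, lay between 1914 and 8213, highest in MS1210.1 and next in MS1166.1 with 7649, and 1733 of its exon bases are shared with Syn3 on the other strand. None of the 3 tested Timp genes was called in any of the 3 comparisons by edgeR, with 1 at an unadjusted p under 0.05 for amplification, 0 for histotype and 1 for parity.

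Mmp15, another membrane-type MMP, was the evenest of the abundant members, between 2517 and 7246 in the 8 tumours. Among the Adamts genes, Adamts1, a protease of versican and aggrecan, had the highest mean per kilobase of the hyalectanases, at 270.

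Parity was compared in the same tumours, virgin (3) against parous (5), to ask whether reproductive history separated these genes. No member was called by edgeR (0 of 44, beside 0.0% of all genes). At an unadjusted p under 0.05, 4 were higher and 5 lower in virgin tumours, beside 784 and 1200 of 14007 genes. The median log2 fold change was -0.79 for the members and -0.10 for all genes, and -0.26 and -0.04 without MS1218.2. The fitted change was positive in 8 of 8 tested genes of the remaining Adamts group and negative in 6 of 6 of the chromosome 9 cluster, 3 of these with an unadjusted p under 0.05. DESeq2 called 2 of 51 members, beside 95 genes higher and 421 lower of 18358, and limma called 0 members. Those 2 were Adamts7, a protease of cartilage oligomeric matrix protein that was 1121, 1180.5 and 621 in the virgin tumours and 199 to 549 in the parous tumours, and Mmp12, which was 130.1 to 361 in the virgin tumours and 247 to 3596 in the parous tumours. Adamts7 did not overlap between the groups and Mmp12 did.

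The sarcoma was set beside the range of the 8 epithelial tumours without a test, since it is a single tumour. A gene stood apart where it was over 2-fold above the highest or below the lowest of the 8, with at least 10 normalized counts. Of the 46 members that could be judged, 15 stood above, beside 9.9% of 15518 genes, and 3 below, beside 5.86%. The 15 were 7 Adamts, 3 Adamtsl, 3 Mmp and 2 Timp genes.

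Adamts20, a proteoglycanase known for its part in pigment cell survival, was 1.19 to 47.1 in the epithelial tumours and 3118 in the sarcoma, or 66.2-fold above the highest. Mmp17, a membrane-type MMP, was 21.1 to 148 and 2309. Adamtsl1 was 85.0 to 888 and 7041. These 3 had the largest ratios to the highest epithelial tumour, at 66.2, 15.6 and 7.93.

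Adamts1 was 545 to 3410.3 in the epithelial tumours and 24964 in the sarcoma, and Adamts12, which cuts cartilage oligomeric matrix protein, was 442 to 1789 and 9492. Adamts5, the main aggrecanase of cartilage, was 449.5 to 2347 and 6889. Mmp16 was 20.2 to 695 and 3774, and Adamts17 was 47.6 to 176 and 929. In each of these genes the sarcoma lay between 2.94 and 7.32 times the highest epithelial tumour. Adamts10 (2758), Mmp2 (12905) and Timp3 (19615) stood just above the 2-fold limit, at 2.06, 2.04 and 2.39 times, whereas Adamts9 and Timp2 lay just inside it, at 1.99 and 1.97 times. Adamtsl3, Adamtsl5, Adamts19 and Timp4 stood above as well, at 2339, 1116, 144 and 110.2 normalized counts. Scaled by total counts in place of size factors, 13 stood above and 3 below.

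Below the range were Mmp13, Mmp12 and Adamts3. Mmp13 was 1 count in the sarcoma, or 1.40 normalized, against at least 56.7 in every epithelial tumour, and Mmp12 was 3 counts, or 4.19 normalized, against at least 130.1. Adamts3 was 55.8 against 116 to 2299. Mmp7, Mmp10 and Mmp24 had 0 counts in the sarcoma, which allows up to 4.19 normalized counts, and the first and last were 0 in some epithelial tumours too. The sarcoma thus had high Adamts, Adamtsl and gelatinase A levels and the lowest sum of the chromosome 9 cluster.

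**Figure D5:**
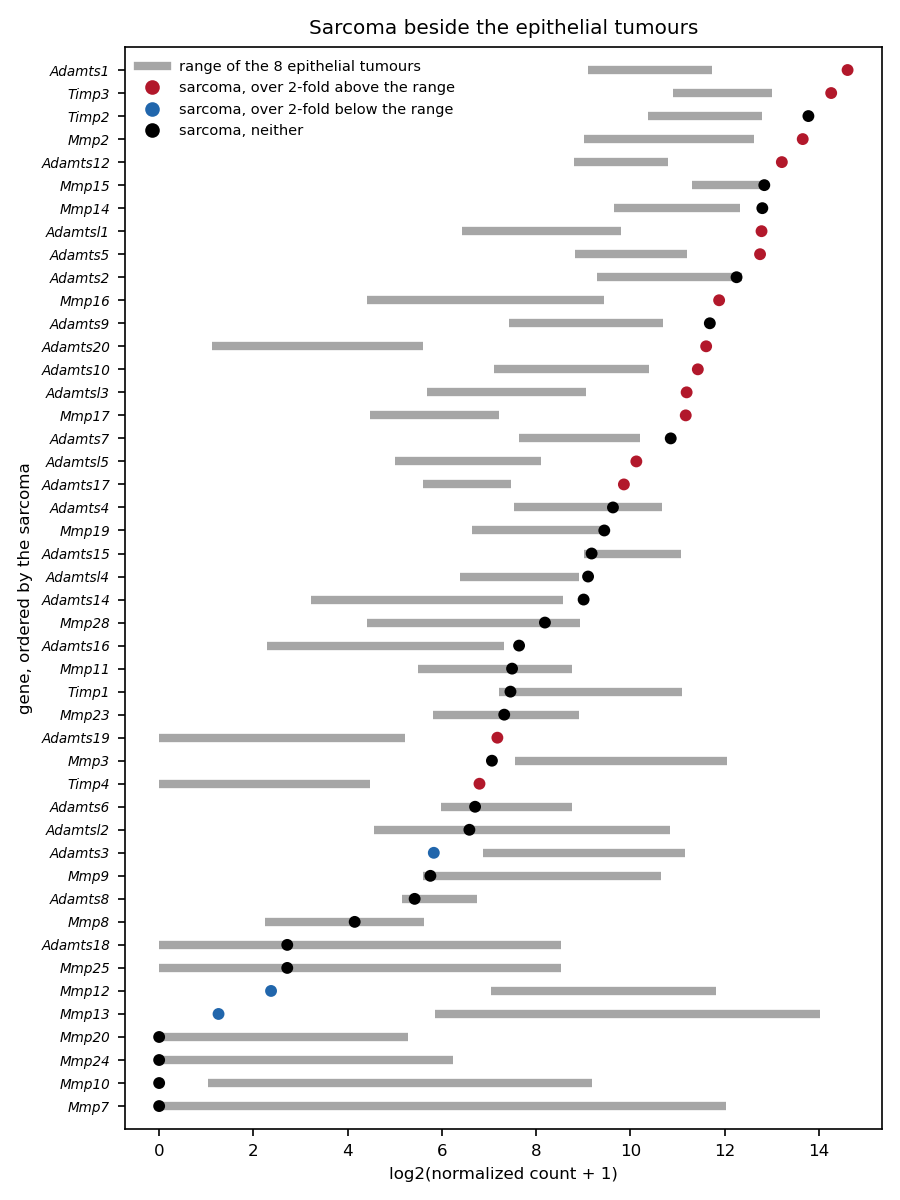
Range of the 8 epithelial tumours (grey bars) and level of the sarcoma (points) for each of 46 genes (vertical axis), as log2(normalized count + 1) (horizontal axis), red where the sarcoma stands over 2-fold above and blue where over 2-fold below the range. Red points number 15 and blue points 3, and the red point farthest from its bar is Adamts20, at 3118 normalized counts.

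Marker sums of the sarcoma were high for fibroblast and skeletal muscle genes. Its fibroblast sum was 170051 against 12926 to 154539 in the epithelial tumours, its skeletal muscle sum (3 of 4 markers listed) 11318 against 3.52 to 2267, and its macrophage and endothelial sums, 7124 and 3443, lay inside the epithelial ranges. Col1a1 made up most of the fibroblast sums. Dcn, Lum, Fap and Pdgfra were 24352, 7110, 2055 and 4181 in the sarcoma. In MS1218.2, the epithelial tumour with the highest sum, they were 3163, 998, 257 and 1792. Pdgfrb, Dpt, Thy1 and Col1a1 went the other way, at 3658, 437, 545 and 127713 in the sarcoma against 5950, 1498, 960 and 139921. The part of such cells in the sarcoma's levels was not tested. Without MS1218.2 among the epithelial tumours, 18 members stood above the range and 3 below.

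Genes that work with these proteases were taken from fixed lists. Of 18 activators, inhibitors and related genes, 17 were tested. In the high-amplified tumours 1 (Papln, papilin, an ADAMTS-like matrix protein) was called higher and 0 lower, beside 0.435% and 0.485% of all genes. The median log2 fold change was 0.29 against 0.02 for all genes. Of 17 matrix substrates, 15 were tested, and 0 were called, with a median of -0.22. At an unadjusted p under 0.05, 1 was higher and 4 lower, beside 1657 and 1542 of 14007 genes. For histotype, 0 of 17 and 0 of 15 were called by edgeR, with 3 higher and 3 lower and with 0 and 0 at an unadjusted p under 0.05. Summed substrate levels were 573486 in MS1218.2 and 71924 to 167343 in the other epithelial tumours, and 820930 in the sarcoma.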

How the data were processed

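RNA was sequenced from 9 mammary tumours, and groups were taken from the sample labels. According to the study's methods, strand-specific libraries depleted of ribosomal RNA were aligned to mouse genome build 38 with STAR (at most 3 mismatches, unique positions only) and counted with HTSeq-count. Tool versions and the strand setting of the counting are not given in the sources used here, so reads in exons shared with a gene on the other strand cannot be assigned. One kind of file deposited by the authors holds whole read counts per gene. For the epithelial tumours, a signal was also deposited, in which these counts are divided by 1 DESeq2 size factor per tumour, and the sarcoma was scaled here against the same reference. No per-sample column was left unused (0 columns).

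Counts were tested with edgeR 4.0.16 (TMM, glmQLFit and glmQLFTest) in R 4.3.3 on the 14007 genes that had 10 or more counts in 3 or more epithelial tumours, with Benjamini-Hochberg adjustment over all of them, in 3 comparisons without covariates. A gene was called at adjusted p under 0.05 and over 2-fold. The fits were tested on simulated counts with known changes. There DESeq2, used as an alternative only, made more false calls at these small group sizes and was held to a wider limit than edgeR and limma. Libraries of a group differed beyond sampling noise (chi-square per degree of freedom of at least 96.7). Alternatives were DESeq2 1.42.0, limma 3.58.1 on log2(normalized count + 1) with a trend, median-of-ratios scaling, other filters, the mean of MS1163.1 and MS1163.2, parity as a covariate, leaving out each tumour, adding the sarcoma, and parous or AC(NST) tumours alone. The set of epithelial tumours without MS1218.2 for the sarcoma was chosen after seeing the data. Positions and exon lengths came from GENCODE M21 (GRCm38) and promoters from RefSeq (GRCm38.p6). Figures were drawn with matplotlib 3.10.9 under Python 3.11.15.

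The genes and lists were chosen with earlier results of these data known. Values were given for members that were called or that did not overlap between groups (over 2-fold, at least 50 normalized counts in some tumour), for the member with the highest level per kilobase in each role group, and for members in which the sarcoma stood apart with at least 100 normalized counts, 28 in all, and other names were chosen after their values were seen. The depth of 12501225 to 23912429 counts sets a floor of 2.11 to 4.19 normalized counts (3 counts), which covers counting error only.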

Additional observations from a re-analysis of the deposited data

Results flagged for a closer look

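In 8 of the 28 members given by name, a single tumour lay far from the other 4 high-amplified tumours by Dixon's ratio. Chance passes this ratio in about 1 of 20 groups of independent, normally spread values. These members share their tumours, were named partly by their values and were compared as normalized counts without logarithms, so that rate cannot be set against the 8. The share over all genes was not computed. In 5 of them MS1218.2 was the highest. Adamts1 was 3410.3 normalized counts there against 545 to 1339.7 in the other 4, Adamts2 was 5283 against 626 to 1559, and Mmp2 was 6329 against 515 to 2059. Adamtsl5 was 274 against 44.3 to 69.3, and Mmp17 was 148 against 21.1 to 32.5. The fibroblast, macrophage and endothelial marker sums were also highest in this tumour, and their part was not tested.

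In the other 3 genes MS1213.1 was the highest. Mmp13 was 183 there against 56.7 to 77.8 in the other 4, Mmp24 was 25.0 against 0 to 6.44, and Mmp7 was 16.4 against 0 to 2.78. All 3 are genes in which both ASQC tumours lay above every AC(NST) tumour. The squamous marker sum of MS1213.1 was 25.0, within the 16.2 to 446 of the high-amplified tumours.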

How the results depend on the processing

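Member genes called for amplification numbered 2 by edgeR, 8 with DESeq2 (5 higher and 3 lower), and 0 with MS1163.1 and MS1163.2 averaged, with parity as a covariate, among parous tumours alone, among AC(NST) tumours alone and with the sarcoma included, while limma, median-of-ratios scaling and the other filters gave 2 or 3. Leaving out each tumour gave 0 to 4, and only without MS1218.2 or MS1166.1 was any member called. For histotype, where 2 were called, DESeq2 gave 7, no filter 4, limma 0, the averaged pair 0, parity as a covariate 0 and parous tumours alone 0, and leaving out each tumour gave 0 to 3. For parity DESeq2 gave 2 and all other fits 0. In the fits with 0 calls, 2 to 7 members were higher and 2 to 8 lower at an unadjusted p under 0.05 for amplification, 4 to 10 and 2 to 4 for histotype and 2 to 5 and 1 to 8 for parity. Of 54 alternative values for Adamts10, Adamts14 and Mmp16 in the amplification comparison, 30 kept their direction and side of the threshold, 22 kept the direction but lost the call, 1 gained a call and 1 reversed, namely Mmp16 at -1.15 with the sarcoma included. Of 120 for 8 genes in the histotype comparison, 95 kept both, 17 lost the call, 8 gained one and 0 reversed. Genes that were not called at first and stayed so count among those that kept both. For amplification, Adamts10 stayed called in 7 of its 18 alternatives and Mmp16 in 6 of 18. For histotype, Mmp13 stayed called in 6 of 16 and Mmp7 in 5 of 12. Over all genes, calls for amplification were 61 higher and 68 lower by edgeR, 907 and 694 by DESeq2, 751 and 504 without MS1218.2 and 0 and 0 with parity as a covariate. For histotype, DESeq2 called 304 higher and 218 lower of 18358 genes, and for parity 95 and 421. The cause of these differences was not tested, and some of these fits also held fewer tumours. The sarcoma count of 18 lay between 16 and 21 under its alternatives. Levels under 2.11 to 4.19 normalized counts, by tumour, could not be told from 0 at this depth. No paired analysis was possible because the labels give no replicate numbers that pair tumours across groups.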

Other observations

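Some members, chosen after their values were seen, were high in a single epithelial tumour. Adamts18 was 365 normalized counts in MS1163.2 and at most 36.1 in the other epithelial tumours, with 10.5 in MS1163.1, the tumour with the same mouse number. Adamtsl2, whose product binds the TGF-β-binding protein LTBP1, was 1839 in MS1155.3 and 22.6 to 269 in the other 7. Adamts15 was highest in MS1166.1, at 2163 against 513 to 1329. Adamts9 was 1653 in MS1349.1 against 171 to 825 in the other 7, but the sarcoma held more, at 3291. The highest fibroblast, macrophage and endothelial sums were in MS1218.2.

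Mmp14 and Timp2, whose products act together on pro-MMP2, were both highest in MS1218.2 among the epithelial tumours (5143 and 7127 normalized counts) and both higher in the sarcoma (7124 and 14031), although neither stood over 2-fold above the epithelial range. Timp1 was also highest in MS1218.2 but was not raised in the sarcoma, at 174 there and 147 to 2188 in the epithelial tumours.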
